A study of Mus musculus with 12 samples.

Results

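FEM1B siRNA was compared with control siRNA in KP cells that carried a control guide RNA. KP is a mouse lung adenocarcinoma line with the genotype KrasLSL-G12D/+; Trp53flox/flox. The comparison used 6 of the 12 RNA-seq libraries of the study, namely the 3 libraries with the sgCTRL guide and siRNA against Fem1b and the 3 with the sgCTRL guide and control siRNA. Of 24421 gene symbols, 13312 had at least 10 counts in at least 3 of the 12 libraries and were tested. The question stated for the study was how loss of FEM1B, or of its client BACH1, affects genes linked to ferroptosis, in which cells die of iron-driven lipid peroxidation. The other 6 libraries, from KP cells with a guide against Bach1, entered the same statistical model and served to compare the siRNA effect between genotypes.

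FEM1B is a substrate receptor: it holds chosen proteins against the CUL2 ubiquitin ligase, which marks them for degradation by the proteasome. Its described clients include FNIP1, a partner of the tumour suppressor folliculin (FLCN), through which it takes part in a response to too little oxidative activity in mitochondria. BACH1, a repressor that heme removes from DNA, competes with the activator NRF2 for antioxidant response elements in genes for iron storage, glutathione and NADPH. A change in a client protein need not show in the client's own transcript, and protein levels were not analysed here.

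All cells were KP cells cultured on plastic, and all carried a guide and a transfected siRNA, so the control libraries share the handling with the knockdown libraries. Transfection lasted 48 hours in every group, 1 control-guide line is named, and each group has 3 samples that the design text calls biological replicates. The labels do not say whether these were separate cultures on separate days, so p-values measure the spread between these samples. Total counts ranged from 18530571 to 22196999 per library in the 6 libraries compared. Levels are given in CPM, counts scaled by the library total and its TMM factor, and a single read equalled between 0.0446 and 0.0542 CPM. Epithelial transcripts were present: the keratin genes Krt7, Krt8, Krt18 and Krt19 and the cadherin gene Cdh1 were all tested. Krt7 was at 1728, 1783 and 1687 CPM with control siRNA. The alveolar lineage markers were not, since Nkx2-1, Sftpa1 and Sftpd had no count in any library and Sftpc, Sftpb and Napsa reached at most 8. Of the markers of other cell types, 9 of 11 for leukocytes, 7 of 8 for endothelium and 6 of 9 for fibroblasts had too few counts to be tested. Among siFEM1B libraries, replicate 3 deviated most from the control-siRNA mean, with a median absolute log2 shift over all tested genes of 0.274 against 0.219 and 0.224 in replicates 1 and 2.

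Fem1b (chromosome 9, 62791824 to 62811648) was measured at 157, 167 and 164 CPM with control siRNA and at 43.0, 58.0 and 54.2 CPM with FEM1B siRNA. The groups did not overlap, and 26.4%, 35.6% and 33.3% of the mean control level was left in replicates 1, 2 and 3. Fem1b fell by 1.66 ± 0.08 on the log2 scale (± is the standard error here and below; adjusted p = 2.66e-11 in edgeR's quasi-likelihood test, Benjamini-Hochberg over all tested genes). The paralog Fem1a went from 35.2, 31.8 and 35.1 CPM to 26.8, 27.3 and 24.3 CPM, all 3 below the lowest control library, and fell by 0.38 ± 0.09 (adjusted p = 0.00148). The third family member, Fem1c, was not called (log2 fold change −0.24 ± 0.11, adjusted p = 0.0778). Whether the siRNA acts on other transcripts directly was not tested, and the siRNA sequence was not used here.

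Genes of the rest of the ligase went both ways. Of 17 tested genes for CUL2 ligase subunits and substrate receptors, Fem1b included, 5 were called higher and 4 lower, with a median log2 fold change of 0.04. Over all tested genes 22.1% were called higher and 22.8% lower, and the median was 0. The scaffold gene Cul2 was at −0.01 (adjusted p = 0.872). Nedd8, the ubiquitin-like protein that switches cullins on, rose from 53.4, 46.9 and 51.1 CPM to 55.6, 61.2 and 74.9 CPM (log2 fold change 0.34 ± 0.08, adjusted p = 0.00255), with replicate 1 only just above the control libraries. Vhl, the receptor that binds hydroxylated HIF proteins, rose by 0.29 ± 0.08. Lrrc14, another receptor of the family, fell by 0.54 ± 0.11 to 14.9, 15 and 15.6 CPM from 25.6, 20.1 and 20.6 CPM.

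Transcripts of described FEM1B clients and partners mostly rose. Of 7 such genes 5 were called higher and none lower, among them Gli1, which had at most 32 counts in any library (1.29 ± 0.35, adjusted p = 0.00469). Flcn, which encodes the folliculin protein, rose from 46.9, 41.0 and 45.2 CPM to 59.6, 63.6 and 68.5 CPM (0.52 ± 0.07, adjusted p = 8.96e-06). All 3 knockdown libraries lay above all controls for Flcn, as they did for Slbp, the histone mRNA binding protein (0.33 ± 0.07), and for Bach1 (0.40 ± 0.08). Ankrd37, an ankyrin-repeat protein and hypoxia target, went from 29.7, 25.8 and 25.9 CPM to 39.7, 50.2 and 66.3 CPM, a rise of 0.94 ± 0.16. The folliculin partner Fnip1 was at 52.0, 61.5 and 52.8 CPM and then 52.8, 60.7 and 64.7 CPM, with overlapping groups and no call (0.10 ± 0.09, adjusted p = 0.401). Its paralog Fnip2 was at 48.4, 49.7 and 55.0 CPM and then 41.6, 44.3 and 48.3 CPM and was not called (−0.19 ± 0.09, adjusted p = 0.0814). Fnip2 was called lower without siFEM1B replicate 3 (−0.23, adjusted p = 0.0491), without replicate 2 of sgBACH1 with siFEM1B (−0.19, adjusted p = 0.0487) and with no filter on low counts (−0.20, adjusted p = 0.0384).

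The transcription factors that share antioxidant response elements with BACH1 moved in different directions. Nfe2l2, which encodes NRF2, was at 116, 116 and 115 CPM and dropped to 58.2, 55.7 and 51.9 CPM. The 2 groups were far apart relative to their spread (−1.06 ± 0.06, adjusted p = 1.07e-10). Its relative Nfe2l3 (NRF3) rose from 10.5, 13.2 and 10.5 CPM to 17.9, 20.1 and 17.8 CPM (0.71 ± 0.11), and the small MAF partner gene Mafk rose by 0.42 ± 0.10. Keap1, the adaptor that directs NRF2 to degradation, was not called (−0.08 ± 0.07, adjusted p = 0.346). Of the 9 tested BACH, NRF, small MAF and KEAP1 genes, 5 were called higher and 1 lower.

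**Figure D1:**
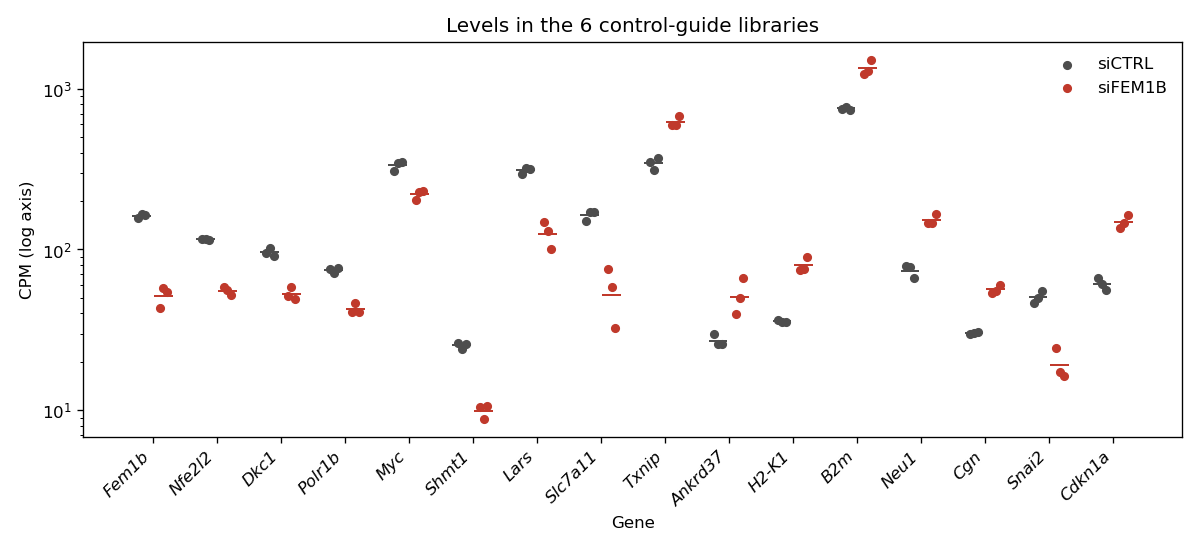
Levels of 16 genes in the 6 libraries, in CPM on a log axis. Each point is 1 library, 3 per group, and each short line is the group mean on the log scale. For each of the 16 genes the siFEM1B points lie wholly above or wholly below the siCTRL points.

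The response was broad and mostly shallow. Adjusted p was under 0.05 for 5982 genes, which is 44.9% of those tested, and the median called change was 1.30-fold upward or to 0.764 of the control level. A change of at least 2-fold was called upward for 388 genes (2.91%) and downward for 158 (1.19%), and a change of at least 4-fold for 94 and 13. Most of the 2-fold changes were in genes of low count: the share of genes called with a 2-fold change was 15.5% where the average log2 CPM was under 0 and 0.800% where it was over 6. For 6925 genes, or 52.0%, all libraries of one siRNA lay above all of the other.

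**Figure D2:**
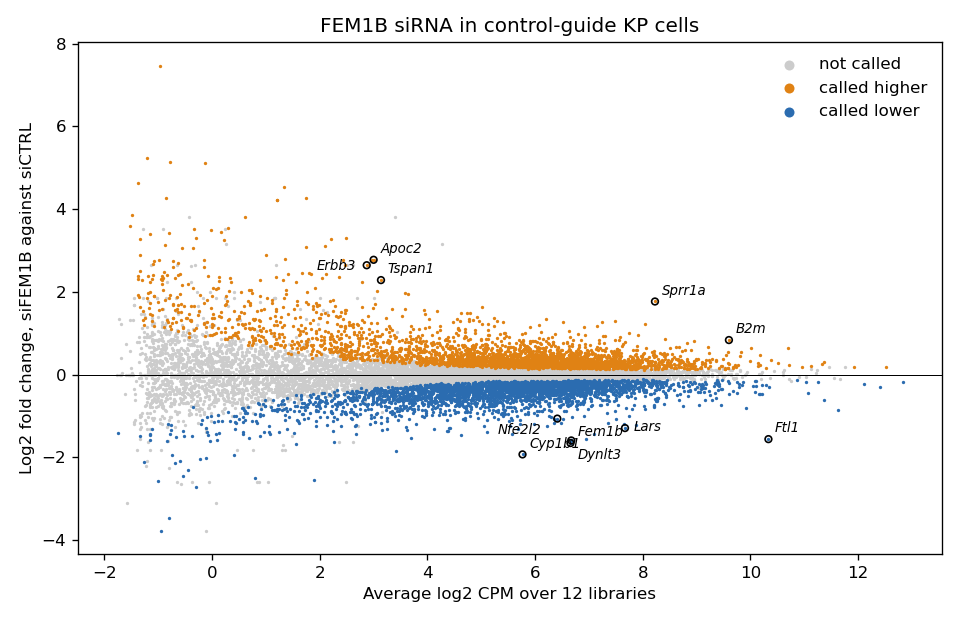
Log2 fold change of FEM1B siRNA against control siRNA in control-guide cells (y axis) against the average log2 CPM over the 12 libraries (x axis), 1 point per tested gene. Coloured points are called, and labelled genes are discussed in the text; large changes gather at low abundance, while Fem1b, Cyp1b1, Dynlt3 and Ftl1 fell at high abundance.

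Genes for building ribosomes fell together. In the nucleolus, RNA polymerase I copies the ribosomal RNA, small nucleolar ribonucleoproteins modify it, and processome proteins cut and fold it into subunits. Of 29 tested genes of this list 28 were called lower and none higher, with a median log2 fold change of −0.48, and 28 had no overlap between groups. Between 27 and 28 stayed called lower under the other scalings, filters and left-out libraries tried. Ranges of list counts under alternatives, here and below, leave out 2 stricter settings. These are the test against a 1.2-fold minimum and the filter at an average log2 CPM of 3. The median shift against the control mean was −0.61, −0.48 and −0.44 in siFEM1B replicates 1, 2 and 3.

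Polr1b, the second-largest subunit of RNA polymerase I, went from 76.0, 71.2 and 76.5 CPM to 41.0, 46.8 and 40.6 CPM (−0.80 ± 0.08, adjusted p = 1.13e-07). The catalytic subunit gene Polr1a fell by 0.77 ± 0.09. Dkc1 (chromosome X, 75095854 to 75109776), the pseudouridine synthase of H/ACA particles, was at 95.1, 102 and 90.9 CPM and then 51.3, 58.0 and 48.9 CPM, with the highest knockdown library well under the lowest control (−0.86 ± 0.07). Nat10, which acetylates cytidines in ribosomal RNA, fell by 0.79 ± 0.07, and the small-subunit processome genes Utp20 and Rrp9 fell by 0.79 ± 0.08 and 0.88 ± 0.09. At higher counts, nucleolin, Ncl, was at 1256, 1344 and 1304 CPM and then 880, 924 and 997 CPM. That separation is a change of −0.48 ± 0.05 (adjusted p = 3.11e-07). Rrn3, the polymerase I initiation factor, was the single member not called (−0.04 ± 0.06, adjusted p = 0.656).

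Myc, whose protein is a textbook activator of ribosome biogenesis genes, was at 310, 346 and 348 CPM with control siRNA. With FEM1B siRNA it was at 202, 227 and 233 CPM, below every control library (−0.60 ± 0.07, adjusted p = 5.96e-07). The E-box CACGTG, a palindrome that MYC and the TFE factors bind, occurred in 5 of the 24 ribosome biogenesis genes with a promoter in the RefSeq table (20.8%), against 11.7% of the 9814 tested genes that had one. A promoter here is 250 bases before to 50 bases after an annotated start site. Among the 5 is Rrn3, the member not called, with 2 matches. In cells with the guide against Bach1, Myc fell by 0.20 ± 0.07, while the median of the ribosome biogenesis list was −0.49. Whether MYC takes part in the fall of these genes was not tested.

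Genes of the finished ribosome did not share this fall. Of 80 tested cytoplasmic ribosomal protein genes 8 were called higher and 9 lower, with a median of 0.03, and of 77 mitochondrial ribosomal protein genes 12 and 15, with a median of 0.00. The cytoplasmic list had library medians of −0.04, −0.06 and 0.19, and without siFEM1B replicate 3 its median was −0.05. Many ribosomal protein genes have near-identical processed copies, so single values are uncertain. The translation initiation factors lay between, with 15 of 38 called lower and 3 higher. The scaffold subunit Eif3b went from 418, 426 and 407 CPM to 279, 293 and 267 CPM, with no overlap (−0.58 ± 0.05), and the scaffold protein of the cap complex, Eif4g1, fell by 0.39 ± 0.05.

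Genes for making, importing and charging amino acids fell as well. All 11 tested genes of serine, proline, asparagine and one-carbon synthesis were called lower, with a median of −0.58; 10 to 11 were called lower under the alternatives. Of 20 cytoplasmic tRNA synthetase genes 17 were called lower and none higher, with a median of −0.29, and 15 to 17 under the alternatives. Of 15 amino acid transporter genes 9 were called lower, with 6 to 9 under the alternatives.

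Shmt1, the cytoplasmic serine hydroxymethyltransferase that passes a carbon from serine to folate, was at 26.3, 24.0 and 25.9 CPM and then 10.4, 8.78 and 10.6 CPM. All knockdown libraries lay far below every control (−1.35 ± 0.11, adjusted p = 1.32e-08). Pycr1, the last enzyme of proline synthesis, fell from 45.4, 53.3 and 51.6 CPM to 27.1, 29.1 and 25.5 CPM (−0.88 ± 0.11). Aldh18a1, the first enzyme of that pathway, was at 421, 449 and 469 CPM and then 311, 263 and 214 CPM, a change of −0.77 ± 0.12. Psph, which releases serine in the last step of its synthesis, fell by 0.42 ± 0.10.

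Lars, the leucyl-tRNA synthetase, changed most in its group, from 296, 319 and 316 CPM to 149, 131 and 100 CPM (−1.29 ± 0.11, adjusted p = 2.74e-08). Replicate 3 was lowest and replicate 1 highest, and all 3 lay far under the controls. The isoleucyl, glycyl and tryptophanyl enzymes Iars, Gars and Wars fell by 0.65 ± 0.08, 0.51 ± 0.07 and 0.53 ± 0.08. Kars, for lysine, was at 443, 446 and 428 CPM and 394, 418 and 426 CPM and was not called (−0.09 ± 0.05, adjusted p = 0.166). Among transporters, Slc1a4, a neutral amino acid exchanger, fell from 110, 113 and 122 CPM to 79.4, 60.8 and 46.3 CPM (−0.88 ± 0.14). Slc38a2, a carrier of neutral amino acids, was not called at 0.07 ± 0.06 (adjusted p = 0.348), with overlapping groups; without siFEM1B replicate 3 it was called higher, at 0.16 (adjusted p = 0.0254).

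ATF4 is the stress-induced factor that drives many of these genes through composite elements, at which C/EBP and ATF proteins pair. Atf4 was at 598, 570 and 596 CPM and then 543, 435 and 437 CPM, all below the controls (−0.32 ± 0.09, adjusted p = 0.00567). Its target and relative Atf5 went from 117, 125 and 124 CPM to 72.6, 57.7 and 49.0 CPM (−1.03 ± 0.14), and the pseudokinase gene Trib3 fell by 0.61 ± 0.15. In the opposite direction went Nupr1, from 143, 140 and 130 CPM to 187, 219 and 288 CPM (0.75 ± 0.10), and Ddit4, an inhibitor of mTORC1 (0.44 ± 0.07). Of the 17 tested stress genes of the ATF4 pathway outside the synthesis and charging lists, 5 were called lower and 3 higher.

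The composite element TGATGCAA, searched on both strands, occurred in 77 of the 9814 promoters of tested genes (0.785%). It occurred in 4 of the 12 tRNA synthetase genes with a promoter entry (Aars, Iars, Tars and Yars), in 1 of 11 synthesis genes (Pycr1) and in 1 of 11 transporter genes (Slc1a4). The 250 bases before the start site are shown for the 3 of these genes in which the whole match lies upstream of the start, as members of a group that fell together. They come from RefSeq, build GRCm38.p6, and are written 5′ to 3′ on the gene's strand, with the match in capitals (TTGCATCA is the same element read on the other strand). Aars lies on the plus strand at chr8:111033592-111033841, Tars on the minus strand at chr15:11399659-11399908 and Pycr1 on the minus strand at chr11:120643749-120643998.
Aars: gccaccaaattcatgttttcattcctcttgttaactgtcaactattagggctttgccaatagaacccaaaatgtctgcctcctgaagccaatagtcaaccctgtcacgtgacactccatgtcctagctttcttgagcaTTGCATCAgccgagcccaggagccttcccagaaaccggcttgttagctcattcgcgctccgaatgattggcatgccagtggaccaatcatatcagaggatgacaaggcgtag
Tars: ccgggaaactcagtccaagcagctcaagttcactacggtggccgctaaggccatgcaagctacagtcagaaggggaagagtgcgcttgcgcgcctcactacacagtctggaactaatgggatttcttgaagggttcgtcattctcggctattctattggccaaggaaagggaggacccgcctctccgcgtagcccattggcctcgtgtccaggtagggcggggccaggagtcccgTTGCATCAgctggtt
Pycr1: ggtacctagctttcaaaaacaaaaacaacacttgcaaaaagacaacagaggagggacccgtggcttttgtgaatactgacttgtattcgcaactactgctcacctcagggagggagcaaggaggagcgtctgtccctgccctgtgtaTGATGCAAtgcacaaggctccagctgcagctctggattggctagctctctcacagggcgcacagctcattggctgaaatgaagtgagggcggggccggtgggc
The first base of the match lies 112, 15 and 103 bases before the start site used by the table in Aars, Tars and Pycr1. For Aars that start lies inside the annotated gene, which spans 111027778 to 111055569. Of these, Pycr1 and Tars (0.47 ± 0.09) fell with a call that every left-out library kept, while Aars fell by 0.23 ± 0.08 (adjusted p = 0.0175). The Aars call ended without siCTRL replicate 2 or without siFEM1B replicate 2 or 3 (adjusted p = 0.0634, 0.0695 and 0.0877).

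Of 13 tested NADPH-producing genes 7 were called lower and none higher, with a median of −0.17. Pgd, the second NADPH-forming enzyme of the pentose phosphate pathway, went from 298, 277 and 275 CPM to 204, 204 and 187 CPM (−0.51 ± 0.05, adjusted p = 1.77e-07). G6pdx, the first enzyme, was at 274, 286 and 294 CPM and then 258, 242 and 241 CPM, separated but by less (−0.21 ± 0.05). Mthfd1, a cytoplasmic folate enzyme, fell by 0.58 ± 0.06, and Nnt, the mitochondrial transhydrogenase, by 0.28 ± 0.06. Mthfd1 also counts in the one-carbon list above, so the 2 lists are not separate results.

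In the cystine and glutathione group 5 of 11 genes were called lower and none higher. Slc7a11, the subunit that imports cystine (chromosome 3, 50364936 to 50499087), was at 150, 171 and 172 CPM and then at 75.3, 58.1 and 32.3 CPM. The 3 knockdown libraries differed among themselves by more than 2-fold, with replicate 3 lowest, and all lay under the controls (−1.56 ± 0.20, adjusted p = 2.90e-06). Gclc, the catalytic subunit that joins glutamate to cysteine, fell from 54.4, 61.8 and 58.6 CPM to 46.1, 45.4 and 42.7 CPM (−0.38 ± 0.06). Cth, which makes cysteine from cystathionine, fell by 0.99 ± 0.18 from a low level of 6.14, 8.71 and 5.97 CPM to 4.01, 3.71 and 2.66 CPM.

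Of 17 thioredoxin, peroxiredoxin and glutaredoxin genes 7 were called lower and 4 higher. The mitochondrial peroxiredoxin Prdx3 was at 105, 96.5 and 96.9 CPM and then 72.0, 70.4 and 69.5 CPM (−0.49 ± 0.06). Txnip, which binds and inhibits thioredoxin, rose from 352, 314 and 371 CPM to 598, 597 and 679 CPM, well clear of the controls (0.85 ± 0.07, adjusted p = 1.54e-08). Prdx5 rose by 0.38 ± 0.07.

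Of the 25 tested detoxification genes, which hold many described NRF2 targets, 11 were called lower and 4 higher. Osgin1, an oxidative stress response gene, was at 171, 141 and 150 CPM and then 96.4, 92.1 and 92.1 CPM (−0.72 ± 0.07). The aldehyde dehydrogenase gene Aldh3a1 fell from 138, 127 and 139 CPM to 80.7, 75.8 and 63.2 CPM (−0.88 ± 0.11), and the glutathione conjugate pump Abcc4 fell by 0.62 ± 0.09. Mgst3, a microsomal glutathione transferase, went the other way, from 113, 99.0 and 103 CPM to 147, 144 and 160 CPM (0.52 ± 0.07). Nqo1, a standard NRF2 target elsewhere, was low here, at 2.73, 3.44 and 3.46 CPM and then 1.47, 1.51 and 1.41 CPM (−1.12 ± 0.27, adjusted p = 0.00177). The antioxidant response element core TGACNNNGC occurred in 4 of 21 detoxification promoters (19%), 3 of 9 NADPH promoters (33.3%) and 17.1% of all tested promoters. Genes with the core in the redox lists above went both ways. They ran from Abcc4 (−0.62) and Pgd (−0.51) through Srxn1 (−0.13) and Txnrd1 (−0.02) to Gstm5 (0.24) and Prdx1 (0.25). Whether NRF2 acts on these genes here was not tested.

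Ferroptosis defence outside glutathione was mixed. Of 23 tested genes of coenzyme Q synthesis, biopterin, vitamin K and lipid remodelling 6 were called lower and 4 higher. Dhodh, which reduces coenzyme Q in mitochondria, was at 25.5, 24.1 and 24.9 CPM and then 13.7, 16.4 and 15.2 CPM (−0.72 ± 0.10, adjusted p = 9.16e-06). Coq2, an enzyme of coenzyme Q synthesis, fell by 0.56 ± 0.10, while Mboat1, a lysophospholipid acyltransferase, rose from 85.0, 84.9 and 90.3 CPM to 117, 115 and 114 CPM (0.41 ± 0.06). Gpx4, the lipid peroxide reductase, was not called (0.02 ± 0.08, adjusted p = 0.869); its groups overlapped at 46.3, 43.5 and 43.1 CPM against 43.2, 40.4 and 51.5 CPM, and its sign turned without siFEM1B replicate 3 (−0.07). Aifm2, which encodes the CoQ reductase FSP1, was not called either (−0.09 ± 0.07, adjusted p = 0.364). On the promoting side 6 of 13 genes were called lower and 1 higher, among them the oxidoreductase Cyb5r1, from 82.4, 81.4 and 85.4 CPM to 59.4, 62.4 and 55.2 CPM (−0.49 ± 0.07).

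Iron storage and export genes fell, and uptake genes did not show a common direction. Of 19 tested iron genes 7 were called lower and 1 higher. The ferritin light chain gene Ftl1 was at 2362, 2163 and 2206 CPM and then 628, 717 and 938 CPM, a change of −1.56 ± 0.10. The heavy chain gene Fth1 was at 2973, 2964 and 2757 CPM and then 1912, 1789 and 1940 CPM, a smaller change of −0.62 ± 0.05. Both ferritin genes have near-identical copies in the genome, so their counts are uncertain. Slc40a1, the iron exporter ferroportin, was near the limit of counting, at 2.05, 1.69 and 1.70 CPM and then 0.535, 0.488 and 0.813 CPM (−1.58 ± 0.33). Ireb2, which encodes the RNA-binding protein that controls ferritin translation, fell by 0.42 ± 0.07. The transferrin receptor gene Tfrc had overlapping groups and was not called (0.09 ± 0.09, adjusted p = 0.403), although it was called higher without siFEM1B replicate 1, at 0.21 (adjusted p = 0.0333).

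Iron-sulfur cluster genes had 8 of 20 members called lower and 1 higher. Hspa9, the mitochondrial HSP70 that transfers clusters, went from 1437, 1511 and 1473 CPM to 1101, 1069 and 1108 CPM (−0.43 ± 0.05, adjusted p = 3.35e-07). Heme genes went both ways, with 6 of 20 called lower and 4 higher.

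Hypoxia targets and chaperones of the endoplasmic reticulum (ER) rose. Of 16 tested hypoxia targets 13 were called higher and 2 lower, with a median of 0.46, and 12 to 13 stayed called higher under the alternatives. Ankrd37 had the highest fold change of the list. Vegfa, the endothelial growth factor, was at 545, 581 and 561 CPM and then 682, 816 and 835 CPM (0.47 ± 0.08, adjusted p = 0.000135). Bnip3, a receptor for the removal of mitochondria, rose from 281, 244 and 259 CPM to 329, 370 and 376 CPM (0.45 ± 0.08). Ero1l, the oxidase that forms disulfide bonds in the ER, spread widely within the knockdown group, at 1157, 1513 and 1690 CPM against 888, 1067 and 832 CPM (0.65 ± 0.18, adjusted p = 0.00599). Pdk1, a hypoxia target that inhibits pyruvate dehydrogenase, moved against the list, from 336, 303 and 335 CPM to 228, 260 and 222 CPM (−0.46 ± 0.07).

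The core of the hypoxia response element, ACGTG on either strand, occurred in 10 of 13 hypoxia targets with a promoter entry (76.9%) and in 29.3% of all tested promoters. The letters also form part of the E-box CACGTG. The 250 bases before the start site of Ankrd37 (chr8:45999851-46000100, minus strand) and Bnip3 (chr7:138909507-138909756, minus strand) are shown as members that rose, again from RefSeq GRCm38.p6 with matches in capitals.
Ankrd37: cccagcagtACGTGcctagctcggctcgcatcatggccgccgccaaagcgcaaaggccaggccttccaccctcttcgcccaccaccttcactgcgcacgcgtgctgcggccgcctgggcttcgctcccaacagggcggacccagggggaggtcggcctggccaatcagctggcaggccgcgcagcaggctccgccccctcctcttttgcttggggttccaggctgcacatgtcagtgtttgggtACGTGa
Bnip3: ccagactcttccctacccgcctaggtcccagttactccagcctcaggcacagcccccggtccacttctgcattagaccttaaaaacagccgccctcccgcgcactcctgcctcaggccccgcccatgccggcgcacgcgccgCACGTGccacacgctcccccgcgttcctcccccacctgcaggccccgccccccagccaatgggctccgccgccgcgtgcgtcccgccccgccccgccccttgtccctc
In Ankrd37 the matches begin 241 and 6 bases before the start site used, which lies inside the annotated gene span of 45996908 to 46000414. In Bnip3 matches on both strands begin 108 and 107 bases before it and overlap, so that together they spell an E-box.

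Of 20 ER chaperone and quality-control genes 13 were called higher and 1 lower, with a median of 0.28. Hspa5, the ER HSP70, was at 904, 955 and 863 CPM and then 1068, 1183 and 1542 CPM, with replicate 3 highest (0.48 ± 0.13, adjusted p = 0.00414). The lectin chaperone gene Calr rose from 821, 779 and 781 CPM to 1004, 1026 and 1237 CPM (0.46 ± 0.07). Edem1, which hands misfolded glycoproteins on for degradation, was at 91.5, 97.3 and 93.7 CPM and then 138 CPM in all 3 libraries, a rise of 0.55 ± 0.06. Canx, the membrane-bound partner of calreticulin, was the member called lower, from 505, 533 and 511 CPM to 390, 398 and 387 CPM (−0.40 ± 0.05).

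Genes of antigen presentation and the interferon response rose. Of 9 tested class I genes 7 were called higher and none lower, with a median of 0.61. The class I heavy chain genes H2-D1 and H2-K1 and the shared light chain gene B2m encode the complex that shows peptides to T cells. H2-K1 (chromosome 17, 33996012 to 34000619) was at 36.3, 35.5 and 35.5 CPM and then 74.4, 75.3 and 89.7 CPM (1.16 ± 0.10, adjusted p = 2.21e-08). H2-D1 was at 223, 231 and 216 CPM and then 432, 406 and 459 CPM (0.95 ± 0.06), and B2m went from 751, 775 and 737 CPM to 1240, 1294 and 1501 CPM (0.83 ± 0.06). Each of these rose in all 3 libraries by far more than the spread within groups. The class I genes are paralogs of similar sequence, so reads may be divided between them. Tapbp, which loads peptides, rose by 0.60 ± 0.05, and the class I activator Nlrc5 was not called (0.21 ± 0.11, adjusted p = 0.139).

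Of 23 tested interferon-stimulated genes 17 were called higher and none lower, with a median of 0.68 and 14 to 18 under the alternatives. Irf7, the factor that amplifies the response, rose from 9.91, 12.7 and 12.9 CPM to 22.2, 23.4 and 29.3 CPM (1.08 ± 0.13, adjusted p = 2.13e-06). Oasl2, a member of the oligoadenylate synthetase family, rose from 19, 23.2 and 25.3 CPM to 41.7, 44.1 and 56.9 CPM (1.08 ± 0.13). Sensors of double-stranded RNA rose too, with 8 of 12 genes of RNA and DNA sensing called higher and 1 lower. Ddx58, which encodes RIG-I, was at 23.9, 27.7 and 28.2 CPM and then 38.7, 38.4 and 38.7 CPM (0.54 ± 0.10), and Tlr3 rose by 0.68 ± 0.14. Whether the response to transfected RNA differs between the 2 siRNAs was not tested.

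The interferon-stimulated response element core (GAAA, any 2 bases, GAAA) occurred in 8 of 17 promoters of the interferon list (47.1%), in 3 of 7 class I promoters (42.9%) and in 3.55% of all tested promoters, counting both strands. The 250 bases before the start sites of B2m (chr2:122147437-122147686, plus strand) and H2-T23 (chr17:36032702-36032951, minus strand) are shown as class I genes that rose and hold the letters, from RefSeq GRCm38.p6 with the match in capitals.
B2m: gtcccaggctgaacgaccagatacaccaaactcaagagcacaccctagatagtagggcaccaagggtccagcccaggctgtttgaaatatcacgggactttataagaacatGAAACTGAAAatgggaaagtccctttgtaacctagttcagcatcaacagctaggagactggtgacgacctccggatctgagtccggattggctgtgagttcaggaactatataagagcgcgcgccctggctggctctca
H2-T23: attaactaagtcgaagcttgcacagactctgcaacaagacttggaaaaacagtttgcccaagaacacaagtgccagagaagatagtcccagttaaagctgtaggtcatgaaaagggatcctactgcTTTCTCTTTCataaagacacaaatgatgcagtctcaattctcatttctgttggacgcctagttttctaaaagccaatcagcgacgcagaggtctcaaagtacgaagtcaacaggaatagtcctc
The match begins 139 bases before the start in B2m and 124 bases before it in H2-T23. H2-T23, a non-classical class I gene, was at 58.1, 55.6 and 57.1 CPM and then 101, 100 and 110 CPM, with no overlap (0.87 ± 0.06, adjusted p = 2.72e-09).

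Genes of the microRNA pathway, which an siRNA shares, were examined beside these. Of 13 tested genes 3 were called lower and 1 higher, 9 were not called, and the median log2 fold change was −0.0007. Over all tested genes 22.8% were called lower and 22.1% higher, so the list as a whole did not fall. Only its called members are described. Dicer1, which cuts hairpins into short duplexes, was at 66.7, 79.0 and 75.6 CPM and then 47.0, 48.2 and 47.1 CPM (−0.64 ± 0.07). Xpo5, which exports hairpins from the nucleus, fell from 86.0, 87.9 and 87.3 CPM to 57.1, 58.0 and 49.9 CPM (−0.66 ± 0.06). Drosha, the nuclear RNase, fell by 0.39 ± 0.07, and Tnrc6b, a silencing partner of Argonaute, rose by 0.70 ± 0.07.

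Genes of the lysosome and of its proton pump rose in part. Of 21 tested V-ATPase genes 13 were called higher and 1 lower, with a median of 0.27. The reads of Atp6v0c, 1 of these, may be divided with a near-identical pseudogene. Of 31 lysosomal hydrolase and membrane genes 14 were called higher and 6 lower, with a median of 0.10. Neu1, the lysosomal sialidase, went from 78.5, 77.6 and 66.0 CPM to 146, 146 and 166 CPM (1.04 ± 0.08, adjusted p = 1.12e-08). Atp6ap2, an accessory subunit of the pump, was at 119, 121 and 116 CPM and then 166, 183 and 198 CPM (0.62 ± 0.06). The protease gene Lgmn fell, from 136, 131 and 123 CPM to 79.6, 91.4 and 87.1 CPM (−0.59 ± 0.06), again without overlap.

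The folliculin and TFE axis, which controls these genes in other settings, had 6 of 12 tested members called higher and none lower, Fnip2 being called lower without siFEM1B replicate 3 as above. Flcn is described above, and the Rag GTPase gene Rragc rose by 0.26 ± 0.05 and the lysosomal factor Tfeb by 0.38 ± 0.08. The TFEB transcript was low, at 22, 20.9 and 19.8 CPM and then 26.9, 27.3 and 27.5 CPM. E-boxes occurred in 12 of 24 lysosomal promoters (50%) and 4 of 15 V-ATPase promoters (26.7%), against the 11.7% given above. The lysosomal genes with an E-box went both ways, from Lgmn (−0.59) and Ctsf (−0.5) to Ctsa (0.24) and Gla (0.47). Whether TFE factors act on these genes here was not tested. Of 30 autophagy genes 7 rose and 6 fell, so the list as a whole had no direction; Gabarapl2 and the receptor Optn rose by 0.63 ± 0.09 and 0.60 ± 0.06 and the kinase gene Ulk2 fell by 0.47 ± 0.07. Cholesterol genes had 11 of 22 called higher and none lower, with a median of 0.22.

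Many genes of epithelial junctions, S100 proteins and annexins rose. Of 19 tested junction genes 12 were called higher and 1 lower, with a median of 0.39. Cgn, cingulin of tight junctions, was at 29.9, 30.4 and 30.7 CPM and then 53.9, 55.3 and 60.1 CPM (0.90 ± 0.07, adjusted p = 1.32e-08). The desmosome genes Pkp3 and Jup rose by 1.18 ± 0.12 and 0.51 ± 0.05. Cldn6 moved the other way, from 401, 407 and 408 CPM to 276, 257 and 261 CPM (−0.61 ± 0.05). Elf3, an epithelial transcription factor, rose from 15, 13.5 and 13.4 CPM to 38.0, 32.6 and 47.8 CPM (1.49 ± 0.12).

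Among 12 factors that set the epithelial or mesenchymal state 4 were called lower and 2 higher, with a median of 0.07. Of 11 mesenchymal structural and marker genes 3 were called higher and 3 lower. Snai2, a repressor of junction genes, was at 46.6, 50 and 55.2 CPM and then 24.3, 17.3 and 16.4 CPM (−1.38 ± 0.13, adjusted p = 1.01e-07). The related repressors Zeb1 and Zeb2 fell by 0.52 ± 0.07 and 0.71 ± 0.09, with no overlap for either. The 2 called higher were Snai1, a further repressor of junction genes, from a low 1.86, 1.22 and 1.30 CPM to 2.54, 3.46 and 3.20 CPM (1.05 ± 0.25), and the epithelial splicing regulator Esrp2 (0.18 ± 0.07). The call of Esrp2 was lost without any 1 of control replicates 1 and 2 and siFEM1B replicates 1 and 2 (0.15 to 0.19). Of 20 annexin and S100 genes 14 were called higher and 2 lower, among them S100a13 (0.78 ± 0.08), S100a16 (0.67 ± 0.07) and Anxa4, from 382, 371 and 393 CPM to 573, 565 and 565 CPM (0.57 ± 0.05).

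Of 36 tested matrix genes 11 were called higher and 8 lower, with a median of −0.06 that turned to 0.08 without siFEM1B replicate 3. The laminin chain gene Lamb3 rose by 0.74 ± 0.12 and the anchoring fibril collagen gene Col7a1 by 0.67 ± 0.08, and from the integrin list Itgb4 rose by 0.69 ± 0.07. These 3 genes, which serve attachment to the basement membrane, were picked out after their values were seen. Of the genes that fell, the adhesive protein Thbs1 was at 125, 172 and 141 CPM and then 51.8, 86.7 and 68.2 CPM (−1.09 ± 0.16) and Col8a1 fell by 0.99 ± 0.08. The plasminogen activators rose, Plau from 24.1, 23.5 and 22.6 CPM to 50.5, 59.1 and 63.4 CPM (1.30 ± 0.10) and Plat by 0.92 ± 0.08.

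**Figure D3:**
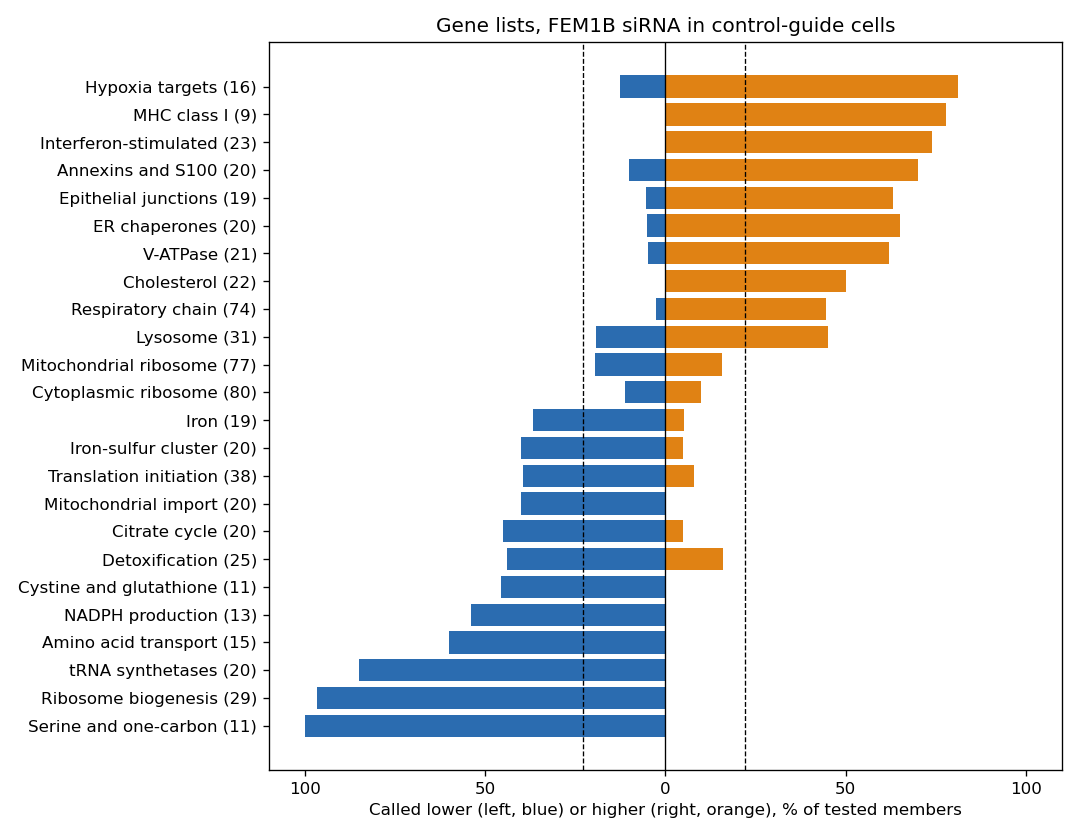
Share of the tested members of 24 gene lists called higher (right) and lower (left) with FEM1B siRNA in control-guide cells, in percent; the number of tested members follows each name. Dashed lines mark the shares over all tested genes, 22.1% higher and 22.8% lower. Ribosome biogenesis and serine and one-carbon genes reach furthest to the left, and hypoxia targets, class I and interferon genes furthest to the right.

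Growth signalling genes changed singly. Erbb3, a receptor of the EGF family without strong kinase activity, rose from 1.55, 2.59 and 2.46 CPM to 16.2, 13.8 and 10.9 CPM (2.64 ± 0.19, adjusted p = 2.54e-09), the highest fold change of its list of 22. The ligands Ereg and Areg fell by 0.68 ± 0.11 and 0.34 ± 0.06, and the receptor gene Axl went from 727, 734 and 744 CPM to 613, 590 and 528 CPM (−0.35 ± 0.06). Spry4, a feedback inhibitor of ERK signalling, rose by 0.85 ± 0.09. Of 16 YAP targets and pathway genes 7 were called lower and 4 higher. Ankrd1, a standard YAP target, was at 262, 292 and 287 CPM and then 152, 167 and 185 CPM (−0.74 ± 0.07). The other standard target, Ctgf, fell by 1.16 ± 0.16 with a wide spread, from 246, 246 and 254 CPM to 70.4, 143 and 121 CPM. Ltbp1, which stores latent TGF-beta in the matrix, fell by 0.75 ± 0.07.

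Cell cycle genes of G1 and of mitosis were called higher more often than lower. Of 20 tested G1 genes 10 were called higher and 4 lower. Cdkn1a, which encodes the inhibitor p21 (chromosome 17, 29090979 to 29100722), was at 66.1, 61.2 and 55.8 CPM and then 135, 147 and 163 CPM (1.28 ± 0.11, adjusted p = 3.77e-08). The CDK4 and CDK6 inhibitor genes Cdkn2c and Cdkn2d rose by 0.78 ± 0.09 and 0.98 ± 0.10, and Cdkn1b (p27) by 0.51 ± 0.07, while Cdkn2b fell by 0.62 ± 0.08. The D-type cyclins went in opposite directions: Ccnd1 fell from 684, 745 and 723 CPM to 522, 456 and 429 CPM (−0.61 ± 0.07) and Ccnd3 rose from 105, 102 and 113 CPM to 185, 200 and 220 CPM (0.92 ± 0.08). These inhibitors did not come with lower levels of mitotic genes as a group, since 14 of 27 mitosis genes were called higher and 2 lower; Kif20a was one of the latter (−0.58 ± 0.06). Replication genes had 3 of 28 called higher and 5 lower. The apoptosis inhibitor Bcl2 was at 35.0, 45.6 and 41.4 CPM and then 18.6, 21.3 and 17.7 CPM (−1.08 ± 0.09), and the pore-forming gene Bak1 rose by 0.56 ± 0.05.

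Clock genes moved in both arms of the loop. Of 19 tested circadian genes 6 were called higher and 9 lower. Arntl (BMAL1), of the activating arm, rose from 22.2, 23.4 and 24.5 CPM to 43.1, 34.1 and 37.7 CPM (0.71 ± 0.09, adjusted p = 2.17e-06). Nr1d2, which represses Arntl, was at 90.7, 96.4 and 87.5 CPM and then 54.5, 60.1 and 61.3 CPM (−0.64 ± 0.06), and the output factor Tef fell by 0.85 ± 0.08. The repressor gene Per1 rose by 0.66 ± 0.13. Time of harvest is not in the labels. In retinoid metabolism 7 of 16 genes were called lower and 2 higher. Rdh10, which forms retinaldehyde, was at 110, 111 and 112 CPM and then 47.7, 47.2 and 45 CPM, with no overlap (−1.25 ± 0.06, adjusted p = 2.88e-11).

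Respiratory chain genes encoded in the nucleus were called higher for 33 of 74 members and lower for 2, with a median of 0.19. The size of this shift rested on 1 library. The median shift was 0.11, 0.09 and 0.32 in siFEM1B replicates 1, 2 and 3, and without replicate 3 there were 25 members called higher and a median of 0.12. Uqcrh, a small subunit of complex III, kept its call throughout, at 103, 100 and 96.6 CPM and then 133, 132 and 161 CPM (0.51 ± 0.07). In cells with the guide against Bach1, 43 of the 74 were called higher and 1 lower, with a median of 0.29. Genes of the mitochondrial genome were not analysed here. Citrate cycle genes had 9 of 20 called lower and 1 higher, and mitochondrial import genes 8 of 20 lower and none higher.

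**Figure D4:**
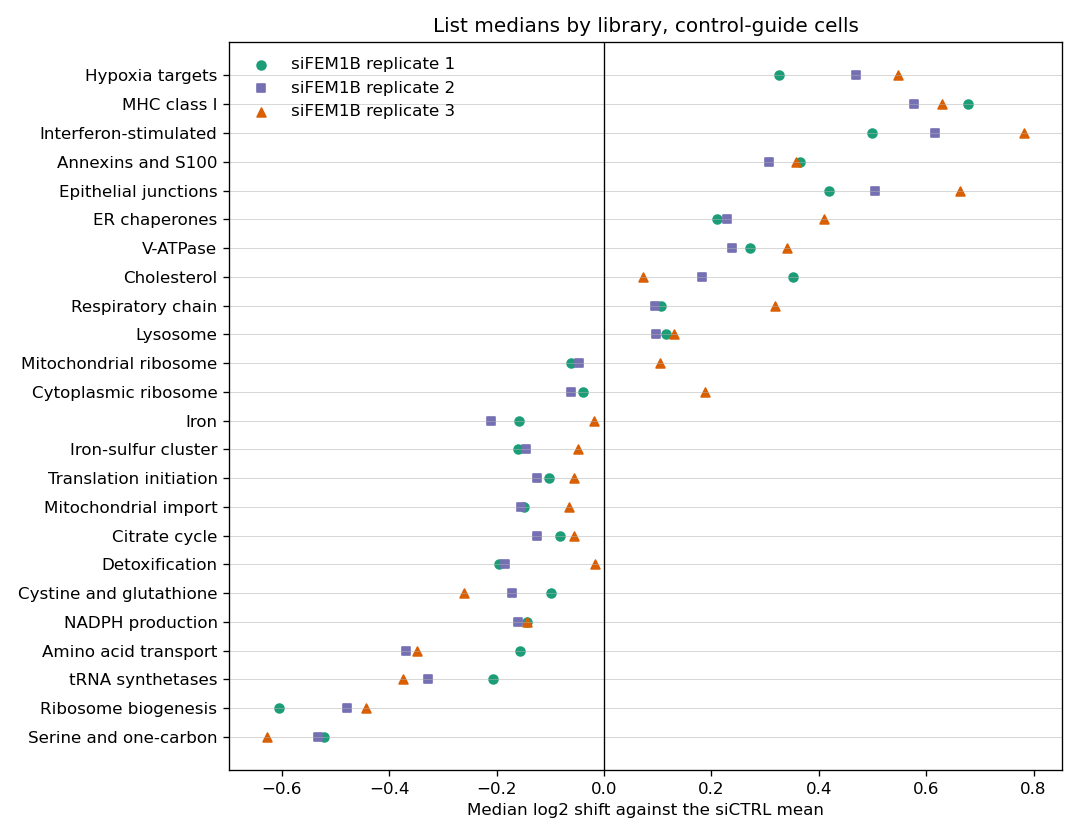
Median log2 shift of the tested members of 24 gene lists in each siFEM1B library against the mean of the 3 siCTRL libraries, in control-guide cells; each point is 1 library. The 3 libraries lie between −0.61 and −0.44 for ribosome biogenesis genes and between 0.24 and 0.34 for V-ATPase genes, while replicate 3 (0.32) stands apart from the other points (0.11 and 0.09) for respiratory chain genes.

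The highest rises and falls were taken by size of change among called genes without overlap whose log2 CPM over the 12 libraries averaged 3 or more. A gene low in control libraries can pass that filter through the siFEM1B libraries, so rises from a few CPM are included. Apoc2, an activator of lipoprotein lipase, rose from 1.77, 1.84 and 1.70 CPM to 11.9, 11.9 and 12.7 CPM (2.77 ± 0.13, adjusted p = 1.60e-11). The table also holds the readthrough gene Apoc4-apoc2, which overlaps Apoc2 and had nearly the same values, so the reads cannot be assigned to 1 of them. The tetraspanins Tspan1 and Cd82, which organise membrane domains, rose by 2.28 ± 0.17 and 1.62 ± 0.09. Further rises were those of Adap1 (2.02 ± 0.13), the kinase gene Dmpk (1.96 ± 0.11), the heparan sulfate sulfotransferase gene Hs3st1 (1.95 ± 0.14), Mpzl2 (1.70 ± 0.15) and Enpp2, which makes lysophosphatidic acid (1.53 ± 0.12). Enpp2 was at 9.86, 10.7 and 10.6 CPM and then 27.3, 32.4 and 30.4 CPM. Sprr1a, a precursor of the cornified envelope, rose from 236, 261 and 283 CPM to 915, 784 and 953 CPM (1.77 ± 0.09), with the reservation that Sprr genes are close paralogs. Cd68, a lysosomal glycoprotein used as a macrophage marker, rose by 1.58 ± 0.14 from 7.41, 9.51 and 7.67 CPM to 23.5, 20.8 and 29.4 CPM. Other leukocyte markers, Adgre1, Tyrobp and Lyz2 among them, had at most 9 counts in any library, Cd14 excepted, which was not called. In bulk RNA, a change in the number of cells of a type and a change in RNA per cell cannot be told apart.

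Falls of the same rank included Cyp1b1, a cytochrome P450 that oxidises steroids and aromatic compounds, from 102, 117 and 120 CPM to 28.1, 32.2 and 28.6 CPM (−1.93 ± 0.07, adjusted p = 1.17e-12). The complement-related protease gene Masp1 fell from 26.5, 25.4 and 23.3 CPM to 7.36, 8.29 and 5.21 CPM (−1.84 ± 0.15). It overlaps Rtp4, an interferon-stimulated gene that was called higher, so its reads may be divided. Dynlt3, a dynein light chain gene, was at 145, 155 and 150 CPM and then 44.9, 54.4 and 49.6 CPM (−1.59 ± 0.07). That fall was close in size to that of Fem1b itself. Tmem65, an inner mitochondrial membrane protein gene, fell by 1.45 ± 0.07 and Chic2 fell by 1.45 ± 0.08. The long noncoding RNA Neat1, the scaffold of paraspeckles, fell from 714, 601 and 767 CPM to 444, 402 and 395 CPM (−0.75 ± 0.07), while Malat1 was at 172, 261 and 262 CPM and then 314, 414 and 455 CPM (0.77 ± 0.18, adjusted p = 0.00143).

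Some called genes differed widely among the knockdown libraries. Besides Slc7a11 and Ctgf, the 5 called genes with the widest spread included Selenbp1, a selenium-binding protein gene, at 53.2, 85.6 and 112 CPM against 42.8, 39.7 and 40.4 CPM (1.02 ± 0.21). Pgf, placental growth factor, was at 82.8, 153 and 182 CPM against 92.7, 81.4 and 67.4 CPM, with 1 knockdown library inside the control range. Its call (0.79 ± 0.24, adjusted p = 0.0117) ended with DESeq2 (adjusted p = 0.0658) and without siCTRL replicate 3 or siFEM1B replicate 3 (0.0618 and 0.0713). Gapdh, often used as a reference gene, was at 71.9, 97.3 and 87.0 CPM and then 107, 143 and 211 CPM (0.85 ± 0.16); its many processed copies make this level uncertain.

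The siRNA effect was then set beside that in KP cells with the guide against Bach1 (sgBACH1, 3 libraries per siRNA). Of the 5982 genes called in control-guide cells, 3603 were also called in the same direction in BACH1-guide cells and 70 in the opposite direction. Across 13312 genes the 2 sets of log2 fold changes had a Pearson correlation of 0.627, given as a description, since genes are not independent. The 2 comparisons share no library, but 1 model and 1 estimate of the spread served both. In BACH1-guide cells 41.6% of genes were called, 21.9% higher and 19.7% lower. The test of the difference itself, the interaction of siRNA and guide, was called for 805 genes (6.05%), with a higher effect in BACH1-guide cells for 3.45% and a lower one for 2.60% of those tested. Of the 805, 571 were among those called in control-guide cells. That count is sensitive to single libraries, as it rose to 1863 without replicate 2 of sgBACH1 with siFEM1B. It fell to between 297 and 306 without replicate 1 or 3 of either BACH1-guide group, and to 381 and 395 without sgCTRL_siCTRL replicate 3 or sgCTRL_siFEM1B replicate 2.

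Ribosome biogenesis genes fell in both genotypes. In BACH1-guide cells 27 of 29 were called lower with a median of −0.49, and the interaction was called for none of the 29 (4 without sgBACH1_siFEM1B replicate 2). Dkc1 fell by 0.86 ± 0.07 in control-guide and by 0.85 ± 0.07 in BACH1-guide cells. Hypoxia targets and ER chaperones differed. In BACH1-guide cells 1 of 16 hypoxia targets was called higher and 3 lower, with a median of −0.08, and the interaction was called for 7. That count was lowest, at 2, without sgCTRL_siFEM1B replicate 2 and highest, at 12, without sgBACH1_siFEM1B replicate 2. All 16 had the lower fold change in BACH1-guide cells. For ER chaperones 2 of 20 were called higher and 6 lower, and the interaction was called for 9 (6 without sgBACH1_siFEM1B replicate 1, 14 without its replicate 2). Hspa5 rose by 0.48 ± 0.13 in control-guide cells and fell by 0.35 ± 0.13 in BACH1-guide cells, an interaction of −0.83 ± 0.18 (adjusted p = 0.0106, at most 0.0430 with any library left out). For Ero1l the interaction was −1.23 ± 0.25 (adjusted p = 0.00817). Replicate 2 of sgBACH1 with siFEM1B stood apart for both genes and did not lie below the control-siRNA libraries. In BACH1-guide cells Hspa5 was at 1394, 1327 and 1425 CPM and then 933, 1399 and 919 CPM. Ero1l was at 1107, 959 and 1112 CPM there and then 536, 1045 and 542 CPM.

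The interaction with the smallest p among called genes whose log2 CPM over the 12 libraries averaged 3 or more was that of Osgin1, a described target of both BACH1 and NRF2. It fell by 0.72 ± 0.07 in control-guide cells and rose by 0.39 ± 0.07 in BACH1-guide cells (interaction 1.11 ± 0.10, adjusted p = 8.18e-06). With control siRNA Osgin1 was at 171, 141 and 150 CPM in control-guide cells and at 49.9, 56.1 and 49.7 CPM in BACH1-guide cells. With FEM1B siRNA it was at 96.4, 92.1 and 92.1 CPM and at 66.6, 66.2 and 72.0 CPM, so it was lower in BACH1-guide cells with either siRNA. Aldh3a1 likewise fell in control-guide cells by 0.88 ± 0.11 and rose in BACH1-guide cells by 0.38 ± 0.11 (interaction 1.25 ± 0.15). It too started lower in BACH1-guide cells, at 71.4, 78.4 and 65.3 CPM against 138, 127 and 139 CPM. Fth1 fell by 0.62 ± 0.05 in control-guide cells and was at 0.03 ± 0.05 in BACH1-guide cells (interaction 0.65 ± 0.08, adjusted p = 5.98e-05). Cdkn1a and H2-K1 rose in both genotypes and by more in control-guide cells, with interactions of −0.97 ± 0.16 and −0.76 ± 0.14. In BACH1-guide cells replicate 2 was the highest siFEM1B library for both. Cdkn1a went there from 67.6, 71.6 and 69.0 CPM to 71.7, 111 and 75.7 CPM, and H2-K1 from 52.6, 54.1 and 55.9 CPM to 67.8, 86.0 and 60.1 CPM. Glutathione transferase Gsta4 and the keratin Krt7 fell in control-guide cells (by 0.33 ± 0.07 and 0.27 ± 0.05) and rose in BACH1-guide cells (0.61 ± 0.08 and 0.39 ± 0.05). Both were lower in BACH1-guide cells with control siRNA, Gsta4 at 33.4, 35.3 and 33.7 CPM against 52.3, 55.5 and 48.9 CPM. Krt7 was at 436, 480 and 424 CPM against 1728, 1783 and 1687 CPM. For Fem1b, Nfe2l2 and B2m the interaction was not called (adjusted p = 0.483, 0.336 and 0.0585), which does not show that the effects are equal.

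**Figure D5:**
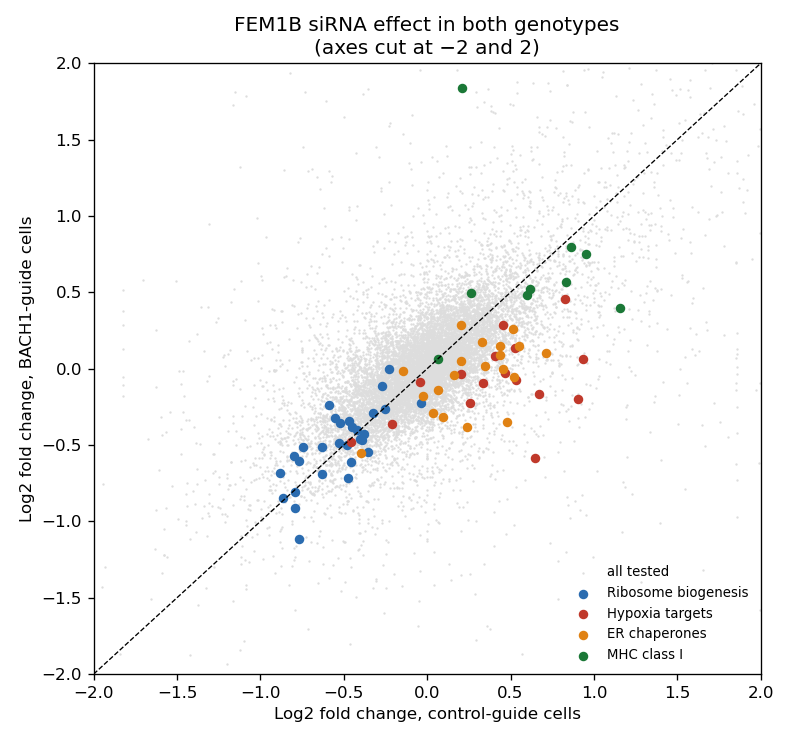
Log2 fold change of FEM1B siRNA in BACH1-guide cells (y axis) against that in control-guide cells (x axis), for the tested members of 4 gene lists and for all tested genes (grey); the dashed line marks equal change. Of 29 ribosome biogenesis genes 13 lie below the line, against 16 of 16 hypoxia targets, 18 of 20 ER chaperones and 7 of 9 class I genes.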

How the data were processed

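RNA from KP cells was sequenced with a stranded mRNA kit, per the labels' protocols. The authors deposited raw counts per gene symbol, made with Subread and featureCounts 1.6.4 on the mouse build mm10 with SAMtools 1.9, and named DESeq2 1.26.0, per the submitters' processing notes. Neither the strand setting nor the annotation was given in these sources.

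Genes with at least 10 counts in at least 3 of 12 libraries were tested with edgeR 4.0.16 (R 4.3.3, TMM scaling, quasi-likelihood test) on the deposited counts. All 4 groups of 3 entered 1 model without a replicate block, and p-values were Benjamini-Hochberg adjusted over all tested genes, with calls under 0.05. Library totals and the worth of 1 count are in the report. Alternatives were other scalings and filters, DESeq2 1.42.0, a 1.2-fold minimum, the 6 control-guide libraries alone, the replicate block and each library left out. The ranges given for gene lists leave out the 1.2-fold minimum and the filter at an average log2 CPM of 3. CPM are per TMM-scaled total.

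The members and the 79 gene lists were chosen with earlier results of these data known. Named genes were the 15 highest rises and 15 deepest falls of called, ordinarily named genes whose groups did not overlap and whose log2 CPM averaged 3 or more, up to 4 members of each list by p, members that define a list's roles, a fixed set around FEM1B, BACH1 and ferroptosis, the 5 most variable called genes and the 10 smallest interaction p. The text shows a selection of these, made after the values were seen. Positions and promoters are from RefSeq GRCm38.p6. A few genes are not reported here.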

Additional observations from a re-analysis of the deposited data

Results flagged for a closer look

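For 43 of the named genes the siRNA effect differed between BACH1-guide and control-guide cells in the interaction test (edgeR, adjusted p under 0.05). The value after each gene is the log2 effect in BACH1-guide cells minus that in control-guide cells. These genes were not all chosen independently of that test, since some were named for their interaction.

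Of these, 26 kept an adjusted p under 0.05 with any 1 library left out. Among the genes that rose in control-guide cells, the effect was lower in BACH1-guide cells for Calr (−0.46), Cd82 (−0.59), Cdkn1a (−0.97), Col7a1 (−0.51), Enpp2 (−0.91), Ero1l (−1.23), H2-K1 (−0.76), Hspa5 (−0.83), Lamb3 (−0.79), Nfe2l3 (−0.67), Optn (−0.38), Plau (−0.86) and Txnip (−0.51). Among those that fell in control-guide cells, it was higher in BACH1-guide cells for Aldh3a1 (1.25), Cldn6 (0.54), Coq2 (0.65), Cyp1b1 (0.63), Fth1 (0.65), Gsta4 (0.93), Krt7 (0.66), Osgin1 (1.11), Prdx3 (0.37), Rdh10 (0.54) and Tmem65 (0.42). The rise was higher in BACH1-guide cells for Adap1 (1.36) and Apoc2 (2.71). Both started low there: with control siRNA Adap1 was at 0.947, 0.599 and 0.693 CPM and Apoc2 at 0.368, 0.399 and 0.416 CPM.

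The other 17 had an adjusted p above 0.05 without at least 1 library. The effect was lower in BACH1-guide cells for Ankrd37 (−0.87), Cd68 (−0.82), Edem1 (−0.40), Erbb3 (−1.14), Malat1 (−0.94), Pgf (−1.33), Plat (−0.47), Selenbp1 (−1.09) and Vegfa (−0.49), genes that rose in control-guide cells. It was higher in BACH1-guide cells for Atf5 (0.72), Chic2 (0.45), G6pdx (0.29), Myc (0.40), Neat1 (0.36) and Tef (0.40), which fell in control-guide cells, and for Hs3st1 (0.72) and Tspan1 (1.43), which rose in both. Tspan1 was near the limit of counting in BACH1-guide cells with control siRNA, at 0.421, 0.449 and 0.139 CPM.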

How the results depend on the processing

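In control-guide cells the count of 5982 called genes stayed between 5240 and 6053 under the other scalings, filters, the 6-library fit and DESeq2, and between 5070 and 6218 with 1 library left out. Of these calls, 4223 were kept in every one of 19 settings, which leave out glmTreat, the log2 CPM filter and the replicate block. Testing against a 1.2-fold minimum (glmTreat) left 2319 genes, 1124 higher and 1195 lower. Among genes averaging log2 CPM 3 or more, 77 and 61 were called at least 2-fold higher and lower.

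The interaction count of 805 (459 higher, 346 lower) depended on the settings. It was 1393 (736 and 657) with no filter and 84 (58 and 26) in glmTreat. The lower count was 617 with DESeq2 and 530 among genes averaging log2 CPM 3 or more. With 1 library left out the count ran from 297 to 1863, the higher part from 171 to 957 and the lower part from 121 to 906. The cause was not tested.

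Same-numbered siCTRL and siFEM1B libraries did not deviate together (r = −0.0545, 0.0439 and −0.0902 across genes). The labels do not say whether same-numbered samples were handled together, and these correlations cannot settle it. A fit with the replicate block called 5749 genes, 5713 of them among the 5982, and 598 for the interaction. Genes at or near 0 turned sign under single settings. Gpx4 ranged from −0.06915 to 0.09193 with 1 library left out, lowest without sgCTRL_siFEM1B replicate 3. Cul2, at −0.01, was at 0.0060 with RLE size factors, 0.0057 with DESeq2 and 0.016 for genes over log2 CPM 3, and ranged from −0.03422 to 0.0080 with 1 library left out. At low counts, genes changed by less than 2-fold were rarely called.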
